A study of Mus musculus with 59 samples.

Results

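The transcriptome of a mouse embryonic stem cell (ESC) line with a conditional deletion of *Pcgf6* was described in ESCs and in embryoid bodies (EBs), from 8 of the 59 libraries of the series. Groups follow the names of the deposited files, which give 2 control and 2 mutant libraries of ESCs and the same of EBs. The sample labels conflict with these names in 6 of the 8 libraries and give the same stage in only 4, and control and mutant below are always the names of the files. The study asked which complex of the Polycomb repressive complex 1 (PRC1) family lowers a set of genes as ESCs leave the pluripotent state. By the labels, all cells carry floxed *Pcgf6* alleles and a tamoxifen-activated Cre (ERT2-Cre;Pcgf6f/f), control cells had no 4-OHT, a tamoxifen metabolite, and mutant cells had it and are Pcgf6delta/delta. ESCs grew with LIF and the inhibitors SU5402, PD184352 and CHIR99021 on mouse embryonic fibroblasts (MEFs), and EBs are aggregates cultured for 2 days in low-attachment dishes without LIF or inhibitors. The study's methods place the deletion of *Pcgf6* for EBs at the start of EB formation, Cre is expressed from the *Rosa26* locus, and the conditional line was derived from blastocysts.

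PCGF6 is the subunit that defines PRC1.6, a variant PRC1 complex in which the ubiquitin ligases RING1A and RING1B sit with L3MBTL2 and with the DNA-binding partners MGA and MAX, which bind E-boxes, and E2F6, which binds E2F sites. In ESCs PRC1.6 is best known for keeping genes of germ cells and meiosis silent. The piRNA pathway, which guards germ cells against transposons, and the synaptonemal complex, which holds paired chromosomes together in meiosis, are among its known targets.

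Expression was measured by RNA-seq and deposited as TPM, which divides the reads of a gene by its length and scales each library to a sum of 1000000, so that the depth is unknown. Between 6953 and 8001 of the 24391 genes were listed at 0 in a library. The stage named by the file matched *Klf4*, a factor of naive pluripotency, and *Fgf5*, a gene of the early epiblast. *Klf4* was at 142 to 200 TPM in the 4 ESC libraries and at 3.25 to 16.1 TPM in the 4 EB libraries. *Fgf5* was at 0 to 0.08 TPM in ESCs and at 18.6 to 35.2 TPM in EBs. Of the other stage markers chosen, *Nr0b1* and *Wnt8a* did not separate the stages. *Nr0b1*, chosen for ESCs, was at 61.0 to 144.8 TPM in ESCs and at 135.9 to 191.2 TPM in EBs. *Wnt8a*, chosen for EBs, was at 0.13 to 0.89 TPM in ESCs and at 0.52 to 9.68 TPM in EBs. The control EB libraries stood apart in composition. Genes of ribosomal proteins took 34.1% and 30% of the TPM in control EBs against 19.3% and 14.5% in mutant EBs and 20.4% to 21.6% in ESCs. TPM is a share of a fixed sum, and the median difference between mutant and control over all 19695 genes tested was 0.64 (log2) in EBs and 0.03 in ESCs. Differences are therefore given both as TPM and after median-of-ratios scaling, which divides each library by the median ratio of its genes to their geometric mean over libraries and brought the median in EBs to 0.04. The difference in a model with the stage as covariate is called the difference over both stages. It had a median of 0.36 as TPM and 0.05 after scaling. A gene is called higher or lower when its adjusted *p* in limma (Benjamini-Hochberg) is below 0.05, and the SE is that of the fit. Whether the 2 libraries of a group came from separate cultures is not stated, so that *p*-values measure the spread between libraries, which may be technical.

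Over both stages, 1680 genes (8.53%) were higher and 213 (1.08%) were lower in mutant than in control libraries. After scaling 1207 genes (6.13%) were higher and 1042 (5.29%) lower, and 1129 and 212 genes were called in both fits. With the libraries grouped by sample label in place of file name, 1 gene was called higher and 0 lower by limma, and 130 genes had an unadjusted *p* below 0.05, against 6208 genes by file name. With each of the 8 libraries left out in turn the count as TPM ranged from 678, without control EB replicate 2, to 1243 for higher and from 66, also without control EB replicate 2, to 153 for lower genes. Values in log2 below are of log2(TPM + 0.1), which understates the change of genes near 0.

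*Pcgf6* itself (mm9 chr19:47108109-47125380, minus strand) was at 91.5 and 104.6 TPM in control ESCs and at 34.7 and 37.0 TPM in mutant ESCs. In EBs it was at 67.1 and 78.8 TPM in control libraries and at 35.7 and 46.3 TPM in mutant libraries. Control and mutant libraries did not overlap in either stage, and *Pcgf6* fell by 1.14 over both stages (SE 0.166, adjusted *p* = 0.00621), or by 1.52 after scaling. The transcript was lowered but remained above 30 TPM in every mutant library, and a gene-level TPM does not show which part of the gene the reads come from.

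Of the 16 genes of PRC1.6 subunits, 2 rose, *Pcgf6* fell, and the median difference was 0.30, against 8.53% higher, 1.08% lower and a median of 0.36 over all genes. *E2f6*, the repressor that guides the complex to E2F sites, rose from 17.1 and 18.9 TPM to 36.7 and 38.0 TPM in ESCs, and from 7.79 and 7.49 TPM to 33.2 and 49.9 TPM in EBs (1.72, SE 0.279, adjusted *p* = 0.00892). *Hdac2*, a histone deacetylase, was the other that rose (1.01, adjusted *p* = 0.0216). Over both stages no difference was detected for *L3mbtl2*, which links PCGF6 to chromatin (0.49, SE 0.227, adjusted *p* = 0.179), for *Mga*, the scaffold of the complex (0.27, SE 0.301, adjusted *p* = 0.542), or for its partner *Max* (0.16, SE 0.116, adjusted *p* = 0.37). In EBs *L3mbtl2*, *Mga* and *Max* were called higher as TPM (1.04, 0.95 and 0.33), where 42.8% of all genes were. After scaling only *Max* of these was called in EBs, and it was lower (-0.39, adjusted *p* = 0.0211). Of the 16 subunits 13 were higher and 1 lower in EBs as TPM (42.8% and 4.22% of all genes). After scaling 3 were higher and 3 lower, where 16% and 16.1% of all genes were. Among 25 genes of other PRC1 complexes *Phc2*, a canonical PRC1 subunit, and *Scml2*, a germ line Polycomb protein, rose and none fell as TPM, a share close to that over all genes. *Cbx7*, the main reader of H3K27me3 in ESCs, was called lower only after scaling (-0.61, adjusted *p* = 0.0112). Of 11 PRC2 genes *Jarid2* (0.81, adjusted *p* = 0.0295) and *Mtf2* (0.51, adjusted *p* = 0.0264) rose, but the call of *Mtf2* was lost after scaling (0.13, adjusted *p* = 0.653). *Ezh1*, a catalytic subunit, was called lower only after scaling (-0.70, adjusted *p* = 0.0109).

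More germ line genes rose than fell in mutant libraries. Of 87 such genes tested (98 listed, 90 in the files), 51 rose and 1 fell (8.53% and 1.08% of all genes), with a median difference of 1.58 against 0.36 over all genes. After scaling 48 were higher and 7 lower (6.13% and 5.29%), with a median of 1.22 against 0.05. In 58 of the 87 every mutant library lay above every control library within both stages, as it did for 23.3% of all genes tested, and in 5 it lay below (3.44%). In ESCs alone, where the scaling changed little, 45 were higher (4.21% of all genes were) and 2 lower (1.92%). In EBs alone 57 were higher and 7 lower as TPM (42.8% and 4.22%), and after scaling 47 were higher and 15 lower (16% and 16.1%). Leaving out each library in turn, between 40 and 49 of the 87 were called higher over both stages as TPM, and between 20 and 43 in ESCs, with 20 without mutant ESC replicate 1.

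The sequences before the start sites of these genes are shown because PRC1.6 reaches its targets through E-boxes and E2F sites. Windows of 250 bases upstream were taken from RefSeq (GRCm38.p6), and the positions given are those of the exact match in mm9. The 6 genes shown have the highest differences among the germ line genes called higher with a single window whose mean reached 10 TPM in a mutant group, and were thus chosen after their values were seen. Capitals mark the E-box CACGTG and the E2F site TCCCGC or its reverse complement GCGGGA.
*Ddx4* (chr13:113442519-113442768, minus strand): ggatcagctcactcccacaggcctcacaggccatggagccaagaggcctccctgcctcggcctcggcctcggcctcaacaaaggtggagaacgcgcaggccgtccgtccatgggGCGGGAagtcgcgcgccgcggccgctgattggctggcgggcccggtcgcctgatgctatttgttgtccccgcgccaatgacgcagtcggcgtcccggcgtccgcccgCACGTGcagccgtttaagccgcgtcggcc
*Slc25a31* (chr3:40512543-40512792, plus strand): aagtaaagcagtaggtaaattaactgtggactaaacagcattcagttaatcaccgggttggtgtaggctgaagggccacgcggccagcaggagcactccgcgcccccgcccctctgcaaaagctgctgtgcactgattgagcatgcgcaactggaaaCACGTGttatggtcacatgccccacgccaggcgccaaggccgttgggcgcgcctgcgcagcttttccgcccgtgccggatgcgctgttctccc
*Taf7l* (chrX:131011030-131011279, minus strand): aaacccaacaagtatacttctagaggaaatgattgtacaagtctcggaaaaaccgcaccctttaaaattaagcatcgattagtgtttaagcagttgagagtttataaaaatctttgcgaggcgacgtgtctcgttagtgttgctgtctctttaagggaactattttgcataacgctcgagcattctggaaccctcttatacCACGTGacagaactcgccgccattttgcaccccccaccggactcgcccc
*Tdrkh* (chr3:94216916-94217165, plus strand): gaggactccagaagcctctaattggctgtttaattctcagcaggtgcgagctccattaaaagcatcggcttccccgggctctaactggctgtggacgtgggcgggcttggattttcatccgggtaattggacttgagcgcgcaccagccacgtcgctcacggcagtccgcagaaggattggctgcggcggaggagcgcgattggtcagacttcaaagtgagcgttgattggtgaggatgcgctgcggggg
*Tex101* (chr7:25457070-25457319, minus strand): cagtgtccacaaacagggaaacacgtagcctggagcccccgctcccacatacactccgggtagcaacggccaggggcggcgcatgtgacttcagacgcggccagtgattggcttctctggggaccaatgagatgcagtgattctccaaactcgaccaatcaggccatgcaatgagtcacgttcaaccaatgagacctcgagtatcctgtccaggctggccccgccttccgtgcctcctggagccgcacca
*Pramel1* (chr4:142984094-142984343, plus strand): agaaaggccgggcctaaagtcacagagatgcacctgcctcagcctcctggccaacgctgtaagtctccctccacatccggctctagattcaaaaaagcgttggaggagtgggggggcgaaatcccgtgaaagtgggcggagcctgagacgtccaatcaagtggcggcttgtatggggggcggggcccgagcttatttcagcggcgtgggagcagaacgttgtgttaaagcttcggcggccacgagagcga

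*Ddx4* held 1 E-box, which started 29 bases before the start site, and 1 E2F site, which started 136 bases before it. *Slc25a31* and *Taf7l* held 1 E-box each, at 93 and 49 bases, and no such letters were in the windows of *Tdrkh*, *Tex101* and *Pramel1*. An E-box was present in the windows of 16 of 41 germ line genes called higher that had a window (39.0%) and in 8.84% of 14330 genes tested. In 31 germ line genes not called higher the count was 6 (19.4%). The E2F site was in 8 of the 41 (19.5%) and in 28.6% of all, and in 13 of the 31 (41.9%). Among all genes called higher in both fits that had a window, 12.8% held the E-box, and among those called lower in both fits 12.4% did. For a gene with several windows, a match in any of them was counted, and a match shows only that the letters are there.

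Of 20 genes of the piRNA pathway 13 rose and none fell (8.53% and 1.08% of all genes), with a median of 1.87. *Tdrkh*, a Tudor protein that tethers PIWI proteins to mitochondria, was at 5.84 and 5.84 TPM in control ESCs and at 59.4 and 59.6 TPM in mutant ESCs. In EBs it was at 3.54 and 2.75 TPM in control and at 36.6 and 47.4 TPM in mutant libraries, so that the groups lay far apart in both stages (3.51, SE 0.169, adjusted *p* = 7.67e-05). *Ddx4*, the helicase VASA of germ cells, went from 17.8 and 16.2 TPM to 120.4 and 103.5 TPM in ESCs and from 6.24 and 8.07 TPM to 87.0 and 111.3 TPM in EBs (3.24, SE 0.233, adjusted *p* = 0.00052). *Mael*, a protein of transposon silencing, was at 14.3 and 15.5 TPM in control and at 138.7 and 136.3 TPM in mutant ESCs, and at 13.5 and 17.0 TPM and 117 and 101.7 TPM in EBs. All mutant libraries lay above all control libraries (3.02, SE 0.139, adjusted *p* = 7.67e-05). *Tdrd1*, a Tudor protein that binds PIWI proteins, was below 0.6 TPM in all 4 control libraries and at 6.25 to 11.6 TPM in the mutant libraries. *Piwil2*, a PIWI protein, rose from 12.8 and 12.2 TPM to 50.7 and 40.8 TPM in ESCs and from 3.25 and 3.84 TPM to 43.5 and 75.9 TPM in EBs. *Tdrd12* and *Pld6*, 2 more members of the pathway, were expressed at over 7 TPM in every library, had differences of -0.19 and -0.16 as TPM and were called lower after scaling.

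Of 31 genes of meiotic chromosomes 13 rose and 1 fell (median 0.73, with 8.53% and 1.08% of all genes). After scaling 12 were higher and 4 lower (6.13% and 5.29% of all genes). The synaptonemal complex genes *Sycp1*, *Sycp2* and *Syce1* all rose. *Sycp1*, its transverse filament, was at 13.7 and 15.3 TPM in control and 122.6 and 127.4 TPM in mutant ESCs, and at 9.54 and 8.21 TPM and 59.9 and 45 TPM in EBs (2.82, SE 0.169, adjusted *p* = 0.000221). *Syce1*, of its central element, rose from 20.2 and 18.9 TPM to 106.6 and 111.2 TPM in ESCs and from 7.32 and 8.35 TPM to 124 and 105.4 TPM in EBs. *Tex11*, an X-linked crossover factor, rose from 9.36 and 8.16 TPM to 49.4 and 42.0 TPM in ESCs and from 2.20 and 2.82 TPM to 34.2 and 47.1 TPM in EBs. *Stra8*, which starts meiosis under retinoic acid, rose by 1.58 (adjusted *p* = 0.00237). *Msh4*, a crossover protein, fell from 0.50 and 0.55 TPM to 0.06 and 0.06 TPM in ESCs and from 0.80 and 0.60 TPM to 0.21 and 0.20 TPM in EBs (-1.66, adjusted *p* = 0.0132). Of the genes of recombination, 2 that were expressed at over 16 TPM in every library were not called, *Dmc1*, the meiotic recombinase (-0.34, adjusted *p* = 0.152), and *Rec114*, needed for meiotic breaks (0.31, adjusted *p* = 0.114).

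Of 36 other germ cell genes 25 rose and none fell (median 2.04, with 8.53% and 1.08% of all genes). *Taf7l*, a germ cell subunit of TFIID, was at 3.62 and 1.79 TPM in control and 56.9 and 51.1 TPM in mutant ESCs, and at 3.49 and 4.26 TPM and 38.6 and 46.9 TPM in EBs (3.89, SE 0.277, adjusted *p* = 0.00052). *Slc25a31*, the ADP/ATP carrier of germ cells, rose from 3.91 and 3.67 TPM to 38.9 and 37.2 TPM in ESCs and from 2.65 and 2.70 TPM to 23.9 and 30.4 TPM in EBs (3.29, SE 0.158, adjusted *p* = 7.67e-05). *Dazl*, an RNA-binding protein of germ cells, was at 24.3 and 29.4 TPM in control and 135.8 and 128.8 TPM in mutant ESCs, and at 11.1 and 11.9 TPM and 31.4 and 35.5 TPM in EBs. *Tex101*, *Ctcfl*, *Mageb4* and *Pramel1* rose by 3.59 to 4.13, with *Ctcfl*, the testis paralog of CTCF, below 0.3 TPM in every control library and at 2.54 to 5.94 TPM in the mutant libraries. Reads of *Pramel1*, *Rhox* genes and *Tuba3b* can be shared with close copies of these genes. Of 17 genes of spermatids only *Acr* was called, at 0.12 to 0.14 TPM in mutant libraries and 0 in control libraries, and the list's median was 0.16.

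**Figure D1:**
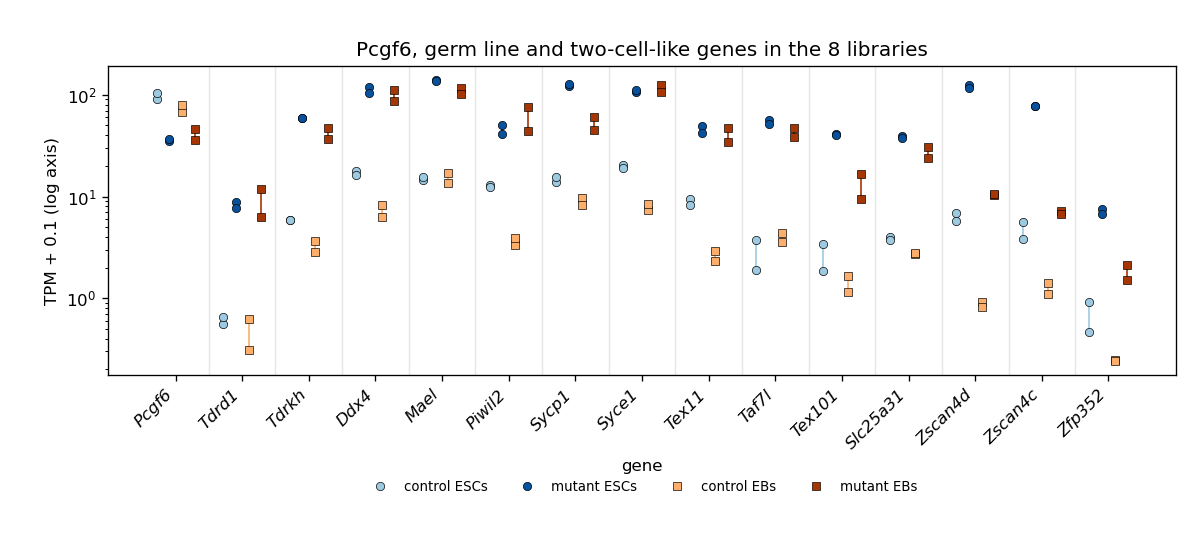
Expression of *Pcgf6*, 11 germ line genes and 3 genes of the 2-cell-like state, as TPM + 0.1 on a log axis. Points are single libraries, the line joins the 2 libraries of a group, circles are ESCs and squares EBs, and pale and dark colours are control and mutant. *Pcgf6* is lower and every other gene shown is higher in both mutant libraries than in both control libraries of its stage.

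Genes of the 2-cell-like state, a rare state of ESC cultures that resembles the 2-cell embryo, rose together with the germ line genes. Of 16 tested (24 listed, 19 in the files), 14 rose and none fell (8.53% and 1.08% of all genes), with a median of 3.06 against 0.36. After scaling 13 were higher (6.13% of all genes). The count as TPM was 13 or 14 with each library left out. *Zscan4d* was at 5.70 and 6.75 TPM in control and 126.1 and 117.7 TPM in mutant ESCs, and at 0.83 and 0.72 TPM and 10.2 and 10.6 TPM in EBs (3.93, SE 0.198, adjusted *p* = 7.67e-05). Within each group its level was lower in EBs than in ESCs, and mutant EBs lay above control ESCs. *Tmem92*, which marks the same state, went from 9.11 and 9.87 TPM to 113.2 and 111.1 TPM in ESCs and from 1.74 and 1.67 TPM to 11.8 and 8.99 TPM in EBs. *Dux*, the transcription factor that drives the state, was at 0.71 and 0.30 TPM in control and 3.66 and 3.41 TPM in mutant ESCs, and at 0 and 0.08 TPM and 0.69 and 0.37 TPM in EBs (2.43, adjusted *p* = 0.00826). *Zscan4*, *Dux* and *Tdpoz* genes are families of near-identical copies, and how their reads were shared out is not described. *Dppa2*, an activator upstream of *Dux*, rose as TPM (1.20, adjusted *p* = 0.0192) but was not called after scaling (0.82, adjusted *p* = 0.166), and its partner *Dppa4* was not called (0.05, adjusted *p* = 0.726).

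Germ line genes were also among the genes with the highest differences. The 10 highest, among called genes whose mean reached 1 TPM in a group and whose control and mutant libraries did not overlap, were *Rhox10*, *Rbm46*, *Snord93*, *Mageb4*, *Henmt1*, *Defb25*, *P3h2*, *4930502E18Rik*, *Tdrd1* and *Pramel1*, at 4.01 to 4.73. *Rbm46*, an RNA-binding protein of meiosis, was at 0.06 and 0.17 TPM in control and 6.14 and 6.27 TPM in mutant ESCs, and at 0.41 and 0.62 TPM and 7.10 and 8.26 TPM in EBs. *Rhox10*, a homeobox gene of spermatogonia, was at 0.27 and 0.54 TPM and 8.87 and 8.79 TPM in ESCs and was listed at 0 in both control EB libraries. *Defb25* was at 0 in both control EB libraries as well and *P3h2* in all 4 control libraries, so that these differences depend on the 0.1 added. *Snord93* was listed at 0 in 3 control libraries and lost its call after scaling (adjusted *p* = 0.0667), and reads of so short a gene can come from a host transcript.

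The 10 lowest were *Ndufa4l2*, *9230117E06Rik*, *Mir5128*, *Apoc4*, *Prkag2os1*, *Grin1*, *Fgf21*, *Tspo2*, *Bnip3* and *Gstt1*, at -3.98 to -1.72. *Ndufa4l2*, a mitochondrial protein induced in low oxygen, fell from 33.9 and 31.5 TPM to 3.97 and 2.55 TPM in ESCs and from 59.9 and 45 TPM to 2.90 and 1.37 TPM in EBs (-3.98, SE 0.343, adjusted *p* = 0.000685). *Bnip3*, a mitophagy receptor induced in low oxygen, fell from 41.7 and 41.6 TPM to 17.2 and 14.2 TPM in ESCs and from 91.7 and 92.9 TPM to 19.6 and 22.8 TPM in EBs (-1.77, SE 0.173, adjusted *p* = 0.00123). *Grin1*, an NMDA receptor subunit, and *Fgf21*, a metabolic hormone, fell from 0.38 to 2.36 TPM in control libraries to 0.14 to 0.63 TPM in mutant libraries. Since use of strand in the counting is not stated, the reads of *Mir5128* and *Prkag2os1* may come from overlapping transcripts. *9230117E06Rik* was listed at 0 in all 4 mutant libraries and *Mir5128* and *Apoc4* in both mutant EB libraries, so that their differences depend on the 0.1 added.

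The stages were then compared. In ESCs 829 genes (4.21%) were higher and 378 (1.92%) lower, or 961 (4.88%) and 735 (3.73%) after scaling. Without 1 of the 4 ESC libraries these became 182 to 331 and 61 to 74, or 234 to 376 and 102 to 147 after scaling. In EBs 8425 genes (42.8%) were higher and 831 (4.22%) lower as TPM, and 3152 (16%) and 3165 (16.1%) after scaling. Without control EB replicate 1 these became 5027 and 592, or 1577 and 1558 after scaling, and without mutant EB replicate 2 the scaled counts were 1984 and 2082. Of the genes called after scaling, 466 were higher in both stages, which is 48.5% of those in ESCs and 14.8% of those in EBs, and 355 were lower in both (48.3% and 11.2%). In a test of the difference between the stages after scaling, the mutant difference was higher in EBs for 1245 genes (6.32%) and lower in EBs for 1464 (7.43%). As TPM these counts were 4801 (24.4%) and 538 (2.73%). The test between stages depended on single libraries. The 2709 genes it called after scaling became 95, 94, 127 and 87 without 1 of the 4 ESC libraries, 177 without control EB replicate 1, 1697 and 1320 without control and mutant EB replicate 2, and 4785 without mutant EB replicate 1. All values in the next paragraphs on stages are after scaling, and TPM levels are given as deposited.

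Of the germ line genes, 23 of 87 had a lower and 6 a higher difference in EBs by the test between stages. As TPM this order was turned, with 9 lower and 17 higher. The 23 became 3, 1, 0 and 0 without 1 of the 4 ESC libraries and 1 without control EB replicate 1. *Dazl* differed by 2.26 in ESCs and 0.81 in EBs (adjusted *p* of the difference 0.00615), whereas *Piwil2* differed by 1.81 and 3.28 (adjusted *p* = 0.0209). For *Tdrkh*, *Ddx4* and *Tdrd1* no difference between stages was detected (adjusted *p* = 0.459, 0.15 and 0.979). Of the 16 genes of the 2-cell-like state 9 had a lower difference in EBs and none a higher one, but no more than 1 did without any 1 of the ESC libraries or control EB replicate 1.

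**Figure D2:**
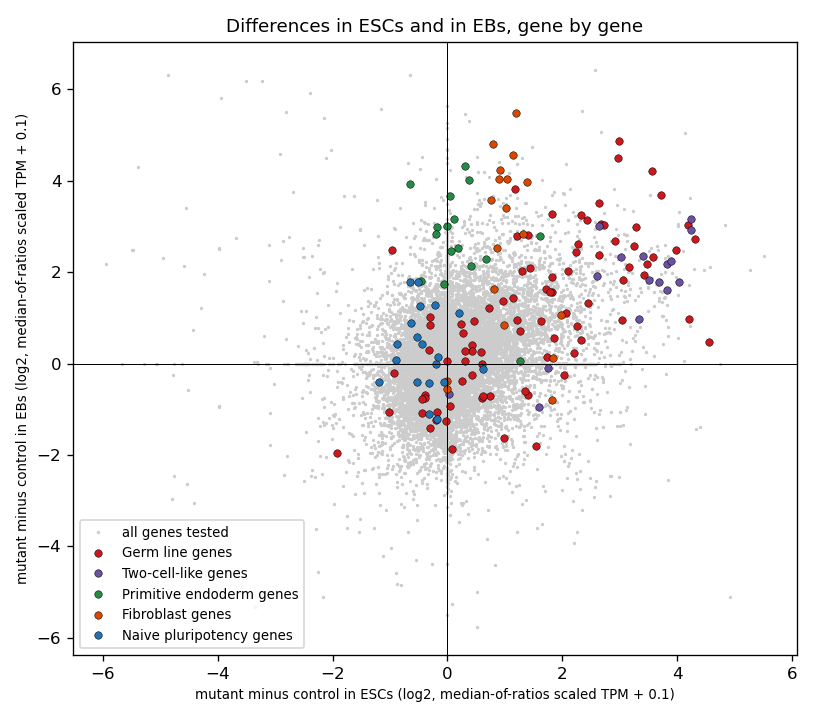
Difference between mutant and control in ESCs (x axis) and EBs (y axis) for all 19695 genes tested, in log2 of TPM + 0.1 after median-of-ratios scaling. Coloured points are the members of 5 gene lists. Germ line and 2-cell-like genes lie mostly to the upper right. Primitive endoderm genes have a median of 0.08 on the ESC axis and 2.81 on the EB axis. Naive pluripotency genes have a median of -0.44 on the ESC axis and 0.14 on the EB axis.

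Primitive endoderm genes were higher in mutant EBs. Of 16, 15 were called higher in EBs and 1 in ESCs (16% and 4.88% of all genes), with medians of 2.81 and 0.08. For 12 the difference was higher in EBs than in ESCs by the test between stages (6.32% of all genes). Between 13 and 15 were called higher in EBs with each library left out, but 1 or 2 of the 12 differed between stages without 1 of the ESC libraries or without control EB replicate 1. As TPM, every mutant EB library lay above every control EB library in all 16, as for 60% of all genes (8.71% lay below). *Gata4*, a transcription factor of this lineage, was at 1.41 and 1.49 TPM in control and 16.6 and 23.6 TPM in mutant EBs, against 2.19 and 2.64 TPM and 2.12 and 2.23 TPM in ESCs (difference between stages 3.16, adjusted *p* = 0.00532). *Col4a1*, a basement membrane collagen, was at 5.75 and 8.39 TPM in control and 127.1 and 277.3 TPM in mutant EBs, and at 13.9 to 19.9 TPM in ESCs. *Cubn*, an endocytic receptor of visceral endoderm, was at 1.09 and 1.25 TPM and 20.0 and 33.2 TPM in EBs, and *Amn*, its partner, at 12.7 and 14.4 TPM and 73.9 and 75.2 TPM. The 2 mutant EB libraries differed from each other in the collagen and laminin genes, with *Lama1* at 35.0 and 74.7 TPM, but both lay above both control libraries. *Dab2*, an endocytic adaptor, was the gene of the list called higher in ESCs too (1.615, adjusted *p* = 0.0144). *Spp1* and *Serpinh1* were among the 3 genes with the lowest *p* between stages as TPM. *Spp1*, osteopontin, was at 382 and 390 TPM in control and 1891 and 2277 TPM in mutant EBs and at 747 to 1044 TPM in ESCs. In bulk RNA, more cells of a type cannot be told from more RNA of these genes per cell.

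Naive pluripotency genes differed between the stages. Of 19, 11 had a higher and 1 a lower difference in EBs than in ESCs, but none did without 1 of the ESC libraries and 1 did without control EB replicate 1. In ESCs 4 were lower and none higher (3.73% and 4.88% of all genes). In EBs 8 were higher and 4 lower (16% and 16.1% of all genes), or 13 and 2 as TPM (42.8% and 4.22%). *Nr0b1*, a nuclear receptor of naive cells, fell from 140.6 and 144.8 TPM to 67.5 and 61.0 TPM in ESCs (-1.19, adjusted *p* = 0.000567) and was at 135.9 and 156.8 TPM and 170.6 and 191.2 TPM in EBs, where its difference was 0.31 as TPM and -0.41 after scaling. *Tfcp2l1*, a naive factor, fell from 118 and 122.9 TPM to 72.4 and 62.1 TPM in ESCs (-0.88, adjusted *p* = 0.0437). *Klf4* was at 141.6 and 200.2 TPM in control and 142.7 and 156 TPM in mutant ESCs, but at 3.25 and 4.11 TPM in control and 16.1 and 13.7 TPM in mutant EBs (1.28 in EBs, adjusted *p* = 0.00419, and 1.498 between stages, adjusted *p* = 0.024). *Esrrb*, another naive factor, was at 60.1 and 69.4 TPM in control and 128.7 and 159.3 TPM in mutant EBs (0.43, adjusted *p* = 0.00948), and *Tbx3* at 5.11 and 6.69 TPM and 16.5 and 26.0 TPM (1.09, adjusted *p* = 0.00246). Even so both genes lay in mutant EBs below their level in ESCs. *Nanog* was higher as TPM over both stages (0.64, adjusted *p* = 0.0137), but not after scaling (adjusted *p* = 0.431). Of 13 formative epiblast genes 3 were higher and 6 lower in mutant EBs (5 and 2 as TPM), against the shares of all genes in EBs given above. *Pou3f1*, which marks this state, went from 245.1 and 243.7 TPM to 166.7 and 163.3 TPM. Of 9 core pluripotency genes none was higher and 3 were lower in EBs (5 and 0 as TPM), against the same shares. In EBs *Pou5f1* was at 1051 and 1555 TPM in control and 2200 and 2367 TPM in mutant libraries (0.12, adjusted *p* = 0.692).

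**Figure D3:**
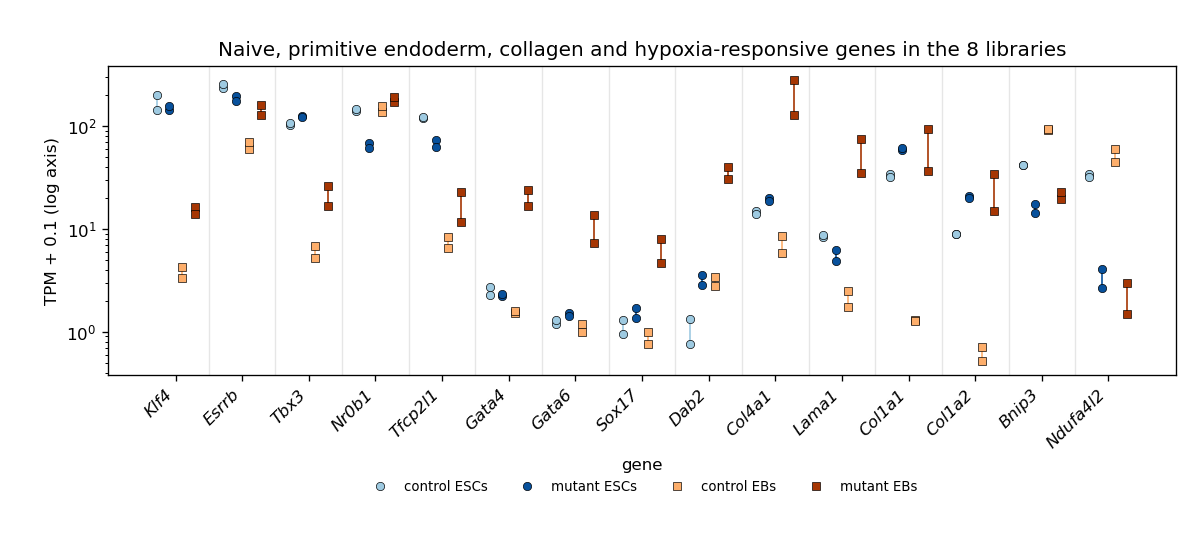
Expression of 5 naive pluripotency genes (*Klf4* to *Tfcp2l1*), 6 primitive endoderm genes (*Gata4* to *Lama1*), 2 collagen genes and 2 genes induced in low oxygen, as TPM + 0.1 on a log axis, with symbols and colours for stage and group and a line joining the 2 libraries of a group. *Gata4* is at 16.6 and 23.6 TPM in mutant EBs and below 3 TPM in the other 6 libraries, *Col1a1* is at 36.1 and 92.2 TPM in mutant EBs against 1.19 and 1.18 TPM in control EBs, and *Bnip3* and *Ndufa4l2* are lower in mutant libraries of both stages.

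Markers of fibroblasts moved with the groups. ESCs were kept on MEFs, and the 18 fibroblast genes summed to 77.1 and 77.3 TPM in control ESCs, 191.5 and 191.3 TPM in mutant ESCs, 22.6 and 31.4 TPM in control EBs and 152.1 and 280.9 TPM in mutant EBs. Over both stages 13 of the 18 were higher and none lower as TPM (median 2.37, with 8.53% and 1.08% of all genes). In EBs after scaling 14 were higher and 1 lower (16% and 16.1% of all genes). Without mutant EB replicate 1 only 1 of the 18 was called over both stages. *Dcn* and *Lum*, which define fibroblasts, were at 0 in all 4 ESC libraries and at most at 0.67 and 0.08 TPM in EBs. *Acta2* and *Tagln*, contractile genes, were raised in mutant ESCs to 24.0 and 25.7 TPM and to 42.8 and 39.9 TPM, but were at 0.54 and 0.59 TPM and at 6.65 and 9.75 TPM in mutant EBs, where control EBs had 0.13 and 0.12 TPM and 6.75 and 10.7 TPM. Their part in the differences of primitive endoderm and germ line genes was not tested.

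Genes of other lineages were counted as well. Over both stages 4 of 14 genes of the primitive streak and mesoderm, 5 of 13 of the trophoblast and 3 of 16 neural genes rose as TPM and none fell, where 8.53% of all genes rose and 1.08% fell. After scaling the counts were 3, 6 and 3. In EBs after scaling 4, 7 and 6 were higher and 1, 2 and 0 lower (16% and 16.1% of all genes). Of the 16 primitive endoderm genes above, 2 were higher over both stages, as TPM and after scaling. *Mesp2*, a factor of presomitic mesoderm, rose from 1.39 and 3.26 TPM to 11.1 and 8.86 TPM in ESCs and from 1.11 and 1.39 TPM to 7.71 and 9.35 TPM in EBs (2.42, adjusted *p* = 0.00344). *T*, the marker of the streak, was at most at 2.20 TPM in any library (0.31, adjusted *p* = 0.704). *Esx1*, a placental homeobox gene on the X chromosome, rose from 22.0 and 24.9 TPM to 54.2 and 53.3 TPM in ESCs and from 1.24 and 1.49 TPM to 13.6 and 10.7 TPM in EBs (2.13, adjusted *p* = 0.0101), whereas *Cdx2* and *Elf5*, which define trophoblast, were at most at 0.83 and 1.00 TPM. *Neurod1* and *Neurog1*, proneural factors, rose by 1.82 and 2.69 (adjusted *p* = 0.00165 and 0.00477). *Sox3* was higher in mutant ESCs, at 25.0 and 24.7 TPM against 4.20 and 4.83 TPM, with a difference of 2.40 in ESCs and, after scaling, of -0.08 in EBs (0.63 as TPM, adjusted *p* between stages 0.00329).

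Of 16 targets of p53, the DNA damage response factor, 10 rose and none fell as TPM (8.53% and 1.08% of all genes), and after scaling 7 were higher and 1 lower (6.13% and 5.29%). Without control EB replicate 2, 3 of the 16 were called higher as TPM. *Plk2*, a stress kinase, rose from 18.1 and 18.7 TPM to 66.7 and 58.6 TPM in ESCs and from 22.3 and 32.9 TPM to 88.7 and 114 TPM in EBs (1.82, SE 0.159, adjusted *p* = 0.000689). *Mdm2*, the ligase that degrades p53, rose by 1.13 (adjusted *p* = 0.0189). *Cdkn1a*, the cell cycle inhibitor p21, had a TPM call (0.50) that was lost after scaling (adjusted *p* = 0.426). Of 12 immediate early genes, which respond to signals and handling, only *Jun* was higher over both stages, in both fits (8.53% and 6.13% of all genes). None was lower as TPM and 3 were after scaling (1.08% and 5.29%). In ESCs 1 was higher and 3 were lower in both fits. The shares of all genes in ESCs were 4.21% and 1.92% as TPM and 4.88% and 3.73% after scaling. *Egr1* was lower in mutant ESCs, at 10.7 and 9.43 TPM against 30.8 and 36.2 TPM.

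Genes had been grouped by how RING1B binding changed from wild-type ESCs to EBs, with Group 1 for gained, Group 2 for stable and Group 3 for lost binding. Over both stages 8.53% of all genes were higher and 1.08% lower as TPM, and 6.13% and 5.29% after scaling. Of 150 Group 1 genes tested 12 were higher and 2 lower as TPM. After scaling 10 and 13 were, with a median of 0.07 against 0.05 over all genes. Of 1293 Group 2 genes 188 were higher and 9 lower as TPM, and 145 and 35 after scaling (median 0.35). Of 67 Group 3 genes 13 and 1 were called as TPM, and 8 and 5 after scaling (median 0.32). In EBs after scaling, 37 of 150 Group 1 genes were higher and 16 lower (16% and 16.1% of all genes, and 77 and 2 as TPM), with a median of 0.23, and 26 had a higher and 3 a lower difference in EBs than in ESCs. In EBs 265 Group 2 genes were higher and 86 lower (median 0.45, and 508 and 25 as TPM). Of the Group 3 genes 13 were higher and 14 lower (median 0.12, and 25 and 5 as TPM). By the test between stages 87 Group 2 genes had a higher and 53 a lower difference in EBs, and 3 and 15 Group 3 genes did. The shares over all genes were 6.32% and 7.43%, and that test depended on single libraries, as given above. Among single genes of Group 1, *Klf4* and *Tbx3* are given above, and *Pdgfa*, a growth factor, was at 63.1 and 62.8 TPM in control and 93.1 and 86.4 TPM in mutant EBs and was higher as TPM (0.51) but not after scaling (-0.21, adjusted *p* = 0.276). *Sox4*, a transcription factor of Group 3, was higher in mutant ESCs (0.65 after scaling, adjusted *p* = 0.0429) and lower in mutant EBs (-1.04 after scaling, adjusted *p* = 0.00322, and -0.32 as TPM), at 148 and 132.3 TPM in control and 116.2 and 108.2 TPM in mutant EBs. *Grhl2*, an epithelial factor of Group 3, was at 1.46 and 1.19 TPM and 2.45 and 2.48 TPM in ESCs and at 11.6 and 14.6 TPM and 15.5 and 21.5 TPM in EBs (0.67 over both stages as TPM, adjusted *p* = 0.0823, and 0.29 after scaling, adjusted *p* = 0.44).

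The differences were set beside those of the *Pcgf1* line, whose 19 libraries have their own controls and carry the same condition in file name and label. PCGF1 defines another variant PRC1. By the study's account *Pcgf1* was deleted before EB formation began and *Pcgf6* as it began, so that the line and the time since deletion cannot be told apart. Of 21248 genes, the difference was higher in the *Pcgf6* line for 2545 (12%) and lower for 149 (0.701%), or 1165 (5.48%) and 593 (2.79%) after scaling. For 47 of the 87 germ line genes the difference was higher in the *Pcgf6* line and for none lower (41 and 0 after scaling), and in the *Pcgf1* line itself none of the 87 was called higher (2.23% of all genes were) and 9 were called lower (2.59%). *Tdrkh* differed by 3.51 in the *Pcgf6* line and by -0.30 in the *Pcgf1* line (difference between lines 3.815, SE 0.284, adjusted *p* = 1.63e-08). *Ctcfl* fell by 2.08 in the *Pcgf1* line (adjusted *p* = 0.000128), and the difference between lines was 6.003 (SE 0.524, adjusted *p* = 1.58e-07). Of 19 naive pluripotency genes, 0 had a higher and 1 a lower difference in the *Pcgf6* line, *Nr0b1* (-1.02, SE 0.265, adjusted *p* = 0.0134), which rose in the *Pcgf1* line. For *Klf4* no difference between the lines was detected (-0.13, SE 0.711, adjusted *p* = 0.927). *Vax2*, a homeobox gene, fell by 1.61 in the *Pcgf6* line, and its difference was lower there than in the *Pcgf1* line (-3.21, SE 1.01, adjusted *p* = 0.0389). Fibroblast genes differed between the lines as well, with 13 of 18 higher in the *Pcgf6* line.

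**Figure D4:**
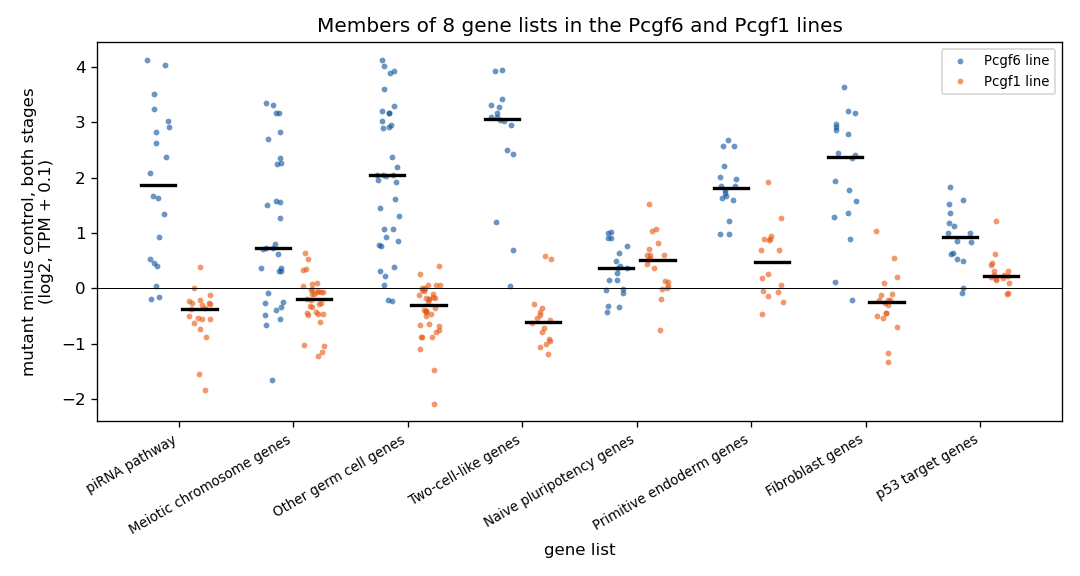
Difference between mutant and control over both stages (log2 of TPM + 0.1) for the members of 8 gene lists in the *Pcgf6* line (blue) and the *Pcgf1* line (orange), with points for genes and bars for medians. In the *Pcgf6* line the median is 1.87 for the piRNA pathway and 3.06 for 2-cell-like genes, and in the *Pcgf1* line these medians are -0.37 and -0.60.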

How the data were processed

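Gene expression of the *Pcgf6* line was taken from 8 libraries, with 19 of the *Pcgf1* line for comparison. The authors aligned reads with STAR (version 2.5.2b) to mm9 and deposited TPM by gene symbol. The step from counts to TPM is not described in the sources used here, and DESeq2, which the authors used, needs counts. Groups follow the names of the deposited files and not the sample labels. Genes above 0 in a library were fitted as log2(TPM + 0.1) with limma (version 3.58.1, R version 4.3.3, variance trend), once with stage and condition and once with 4 groups, for each stage alone and the difference between stages, with all 8 libraries sharing 1 estimate of the spread. Median-of-ratios scaling used 14370 genes above 0 in all libraries. Both lines were fitted together for the comparison between them.

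Named genes were *Pcgf6*, the 10 highest and 10 lowest called genes whose mean reached 1 TPM in a group and whose libraries did not overlap within either stage, up to 6 called members of each list, 4 subunits of PRC1.6, 5 genes the study shows, and the 3 genes with the lowest *p* between stages and the 3 at either end between lines. Others were chosen after their values were seen. The members and lists were chosen with earlier results of these data known. Group 1 to 3 genes are the study's, matched by symbol. The fit was tested on simulated data, tables and plots used Python (version 3.11.15), pandas (version 2.3.3), numpy (version 2.4.6) and matplotlib (version 3.10.9), and the alternatives tried are given at the end.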

Additional observations from a re-analysis of the deposited data

Results flagged for a closer look

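The mutant difference depended on the stage for many genes, by limma's test of the difference between EBs and ESCs after median-of-ratios scaling: it was higher in EBs for 1245 genes and lower in EBs for 1464. Their sum, 2709, ranged from 87 to 4785 with each library left out, and was 177 or less without 1 of the ESC libraries or without control EB replicate 1, and 1697 without control EB replicate 2.

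Among named genes, the difference in EBs exceeded that in ESCs (log2) for the collagen genes *Col6a1* by 4.298, *Col1a1* by 4.004, *Col1a2* by 3.417, *Col6a2* by 3.328, *Col3a1* by 3.006 and *Col5a2* by 2.579. Mutant EB replicate 2 held the higher level of each of these collagens. It also exceeded it for *Hand1*, a mesoderm and trophoblast factor, by 3.275, for *P3h2*, a collagen hydroxylase, by 2.403, for *Spp1* by 2.152, for *Serpinh1*, a collagen chaperone, by 1.792, for *Lamb1*, a laminin, by 1.604, for *Esx1* by 1.219 and for *Krt8*, a keratin, by 0.9103. *P3h2* was at 0 in all 4 control libraries and *Hand1* in both control EBs, so that their values depend on the 0.1 added before the log. Of the naive factors it did so for *Klf4* by 1.498 and *Tbx3* by 0.8874, and of the germ line genes for *Spata22* by 2.646, *Piwil2* by 1.464 and *Tex11* by 0.9225. For *Mir7026*, at 3.08 and 3.04 TPM in control ESCs and at 0 in mutant ESCs and control EBs, it was 11.17, a value set by the zeros.

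The difference in EBs was below that in ESCs for *Zscan4c* (-2.233), *Sox3* (-2.481), *Sox4* (-1.687), *Sfrp2*, a secreted WNT modulator (-1.473), *Bnip3* (-1.393), *9230117E06Rik* (-2.319) and *Mir5128* (-3.929). *9230117E06Rik* was at 0 in all 4 mutant libraries and *Mir5128* in both mutant EBs, so that these values too depend on the 0.1 added.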

How the results depend on the processing

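Grouping the libraries by sample label turned the *Pcgf6* difference to 0.22, gave 1 gene higher over both stages and 0 in the other counts over both stages, in each stage and between stages, and medians of 0.0503, 0.0984 and 0.11 for germ line, Group 2 and Group 3 genes. Median-of-ratios scaling gave 1042 genes lower over both stages, 735 lower in ESCs, 3152 higher and 3165 lower in EBs, 2709 that depended on the stage, 1165 and 593 that differed between the lines, and medians of 0.0686, 0.35 and 1.22 for Group 1, Group 2 and germ line genes. Quantile normalization gave 928 and 954 over both stages, 737 lower in ESCs, 3031 and 2707 in EBs, 2040 for the stage, and medians of -0.0211, 0.0940, 0.13 and 1.19 for Groups 1 to 3 and germ line genes. A pseudocount of 1 lowered the medians of Group 2, Group 3 and germ line genes to 0.19, 0.29 and 1.21, and a mean TPM of at least 1 raised that of germ line genes to 1.94. Fitting only the 4 libraries of a stage gave 829 lower in ESCs and 515 lower in EBs. The replicate block gave 1017 higher and 111 lower over both stages and 232 lower in ESCs. Same-numbered libraries deviated together weakly (r = 0.0255 in ESCs and 0.143 in EBs), so the numbers were not taken as pairs. Of 81 named genes called, 77 kept their call with a pseudocount of 1, 75 after scaling, 67 after quantile normalization and 65 with the block, and none changed sign.

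Chosen after seeing the data, scaling with a mean TPM of at least 1 gave 1024 and 1184 over both stages, 906 lower in ESCs, 3005 and 3352 in EBs, 3559 for the stage and medians of -0.00040, 0.25 and 0.29 for Groups 1 to 3, and TPM without ribosomal protein genes gave 466 lower over both stages, 1429 lower in EBs and 3471 for the stage. The cause of these shifts was not tested.

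With each library left out, the lone library of its group being assumed to vary like the others, *Pcgf6* ranged from -1.279 to -1.043 and the germ line median from 1.503 to 1.666. Genes higher and lower ranged from 678 to 1243 and from 66 to 153 over both stages, from 182 to 876 and from 61 to 448 in ESCs, and from 5027 to 8736 and from 587 to 945 in EBs. Genes that depended on the stage ranged from 50 without control ESC replicate 1 to 7248 without mutant EB replicate 1, and were 51, 172 and 142 without the other ESC libraries and 1052 without control EB replicate 1. Medians ranged from 0.2573 to 0.4791, 0.4626 to 0.6449 and 0.4336 to 0.7013 for Groups 1 to 3. After scaling, also chosen after seeing the data, these ranges were -1.56 to -1.489, 1.096 to 1.338, 596 to 863 and 365 to 791, 234 to 1026 and 102 to 926, 1577 to 3601 and 1558 to 3408, 87 to 4785, and 0.003915 to 0.1205, 0.3022 to 0.3687 and 0.1995 to 0.3362.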

Other observations

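Genes known to be induced in low oxygen were listed after *Ndufa4l2* and *Bnip3* had been seen among the lowest, so that their counts are a description with no test of the list. Of 16 such genes 6 were called lower and none higher over both stages as TPM (1.08% and 8.53% of all genes), and 9 were lower after scaling (5.29%). *Pgk1*, a glycolytic enzyme, was at 240.5 and 251.9 TPM in control and 166.6 and 170.2 TPM in mutant ESCs, and at 366.1 and 401.9 TPM and 209.4 and 198.1 TPM in EBs. *Vegfa*, the vascular growth factor, was at 31.1 and 29.5 TPM in control and 10.1 and 9.56 TPM in mutant ESCs but at 6 and 7.48 TPM and 8.30 and 11.7 TPM in EBs. *P4ha1* and *Mxi1* were not called over both stages. In the *Pcgf1* line 2 of the 16 were lower and none higher (2.59% and 2.23% of all genes).

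Genes of ribosomal proteins differed between the EB groups: 77 of 83 were lower in mutant EBs after scaling (16.1% of all genes). As TPM 62 were lower and 2 higher in EBs (4.22% and 42.8% of all genes), and none was called in ESCs. The median level was 3075 and 2655 in control EBs, 1835 and 1241 in mutant EBs and 1797 to 2102 TPM in ESCs. The median is over the 83 genes within a library.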
